A study of Homo sapiens with 5 samples.

Results

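The p53 pathway target genes are a list of 33 genes that are textbook transcriptional targets of the tumour suppressor p53. The members were chosen by name and not by a rule on their values, but with earlier results of these data known. Rows of the count table carry Entrez gene identifiers, which were matched to symbols in the NCBI gene names, and all 33 members were found among the 23459 genes of the table. All 33 passed the filter on low counts, as did 13616 genes in all, and the lowest count of any member in any library was 22.

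The p53 protein is a transcription factor that is kept scarce in unstressed cells by MDM2, a ubiquitin ligase that marks it for degradation and is itself a p53 target. DNA damage or oncogene activity frees p53 from MDM2, and p53 then binds pairs of a short decamer near genes that halt the cell cycle, repair DNA, start apoptosis or adjust metabolism. JUN is a subunit of the transcription factor AP-1. MCF10A is a non-tumorigenic, immortalised human mammary epithelial line with a deleted CDKN2A locus.

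The 3′ ends of messenger RNA were sequenced from MCF10A SAM cells, a background common to all libraries. SAM cells express dCas9-VP64 and MCP-p65-HSF1, activators that a guide RNA brings to a promoter, and they were picked as single clones. In the 3 NTC libraries the guide was a non-targeting control, and in the 2 sgJUN#1 libraries it was directed to the JUN promoter to overexpress JUN. All cells were grown with serum, insulin, hydrocortisone, cholera toxin and EGF. The guide vectors of both groups carry a zeo marker, for which the usual drug is Zeocin, an agent that cleaves DNA, and infected cells were selected with antibiotics. The drug used for each vector and the time from selection to harvest are not given in the sources used here. The study calls the replicates of this comparison biological but counts fewer of them than the NTC libraries used here. Which libraries it used is not stated. Neither the study nor the labels say whether replicates came from separate cultures or clones, so p-values measure only the spread between these libraries.

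Total counts were 2455627 to 4393252 per NTC library and 2766254 and 4988062 in the sgJUN#1 libraries, so that 3 counts correspond to between 0.601 and 1.22 CPM, the count scaled to a common library total. The CPM of genes given below were scaled to TMM-adjusted totals. JUN itself was counted at 25.0, 36.2 and 9.32 CPM in NTC, against 172 and 265 CPM in sgJUN#1, with no overlap. Its log2 fold change was 3.25 with an edgeR adjusted p of 0.0733, and it passed 0.05 under 5 of the 12 alternatives. Cell cycle genes set NTC replicate 3 apart from the other NTC libraries, as given with those genes. The summed CPM of 12 mammary epithelial markers was 1371, 1997 and 2381 in NTC and 3023 and 1344 in sgJUN#1, with KRT5 at 152 to 454 CPM and KRT14 at no more than 3.26 CPM. Of these markers none was called by edgeR, and 2 had an unadjusted p under 0.05. Their log2 fold changes ran from -2.55 for ITGB4 to 2.44 for EPCAM, and 5 were beyond 1 in either direction. The libraries were separated upwards in 3 (25.0%) and downwards in 3 (25.0%), against 12.2% and 12.8% of all tested genes. CD3E and ALB were at 0 in every library, while the fibroblast-associated PDGFRA gave 149 to 208 CPM and DCN 22.8 to 87.8 CPM. The summed CPM of 12 markers of other cell types was 209 to 342 in NTC and 203 and 237 in sgJUN#1. The part of either marker list in the results was not tested.

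None of the 33 members passed an adjusted p of 0.05 between sgJUN#1 and NTC in edgeR's quasi-likelihood test, where 0.206% of all tested genes did (0.0808% higher and 0.125% lower in sgJUN#1). Unadjusted p-values under 0.05 were found for 4 members, all higher in sgJUN#1 (CDKN1A, FAS, POLH and SUSD6), which is 12.1% of the list. Over all tested genes 8.38% passed by that measure, 4.02% as higher. DESeq2 called 1 member, CDKN1A, and edgeR without the low-count filter also called CDKN1A alone. Across all tested genes these calls covered 1.13% and 0.756% respectively. limma-voom called no member.

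Log2 fold changes of the members ranged from -0.46 for BAX to 1.00 for CDKN1A, with a median of 0.11, against -0.0082 over all tested genes. They were above 0 for 21 members, which is 63.6%, compared with 49.0% of all tested genes. In 8 members (24.2%) the sgJUN#1 libraries both exceeded the highest NTC library, and in no member were both under the lowest. Of all tested genes, 12.2% were separated upwards and 12.8% downwards in this way. The 8 separated members were CDKN1A, SUSD6, POLH, FAS, TIGAR, ZMAT3, DDB2 and TNFRSF10B. Because bulk RNA was measured, more expressing cells and more RNA per cell cannot be told apart for any of them.

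CDKN1A encodes p21, the inhibitor of cyclin-dependent kinases through which p53 halts the cell cycle in G1. The gene lies at chr6:36644237-36655114 on the plus strand of GRCh37. Its counts were 389, 285 and 366 in NTC and 865 and 630 in sgJUN#1. In CPM this was 107, 116 and 81.2 in NTC, a mean of 101 ± 18.1 (SD, n = 3), against 179 and 225 in sgJUN#1, a mean of 202 ± 33.1 (SD, n = 2). Both sgJUN#1 libraries were above every NTC library, by more than the spread within either group. The log2 fold change was 1.00 (SE 0.22, 95% confidence interval 0.50 to 1.49), a 1.99-fold difference, with an edgeR unadjusted p of 0.00125 and an adjusted p of 0.176.

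By unadjusted p, CDKN1A ranked 97 of 13616 tested genes, and by log2 fold change it ranked 285. The adjusted p was 0.0288 in DESeq2 and 0.0319 in edgeR without the low-count filter, both past 0.05, and over all 12 alternatives it ran from 0.0288 to 0.740. Its log2 fold change stayed between 0.82 and 1.16 over the same alternatives. An exact permutation test over the 5 libraries, two-sided, returned p = 0.1, which is the lowest possible with 3 and 2 libraries.

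The sequence upstream of CDKN1A is shown because this gene had the largest fold change of the list. Promoters were read from RefSeq on GRCh38.p14 as the 250 bases before each annotated start. The CDKN1A window, chr6:36678464-36678713 on the plus strand, is given 5′ to 3′ with each GC box (GGGCGG, the letters bound by SP1) in capitals.
CDKN1A: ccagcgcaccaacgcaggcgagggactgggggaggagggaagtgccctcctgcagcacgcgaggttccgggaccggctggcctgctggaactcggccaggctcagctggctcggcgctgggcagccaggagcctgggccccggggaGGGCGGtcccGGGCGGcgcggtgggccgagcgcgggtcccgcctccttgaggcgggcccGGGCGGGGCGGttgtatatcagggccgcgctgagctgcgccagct
It held no TGANTCA (the AP-1 letters), no TGACGTCA (the CRE letters) and no p53 decamer on either strand. The p53 sites for which CDKN1A is known lie further upstream than this window. The absence of a match says only that these letters are not in these 250 bases.

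**Figure D1:**
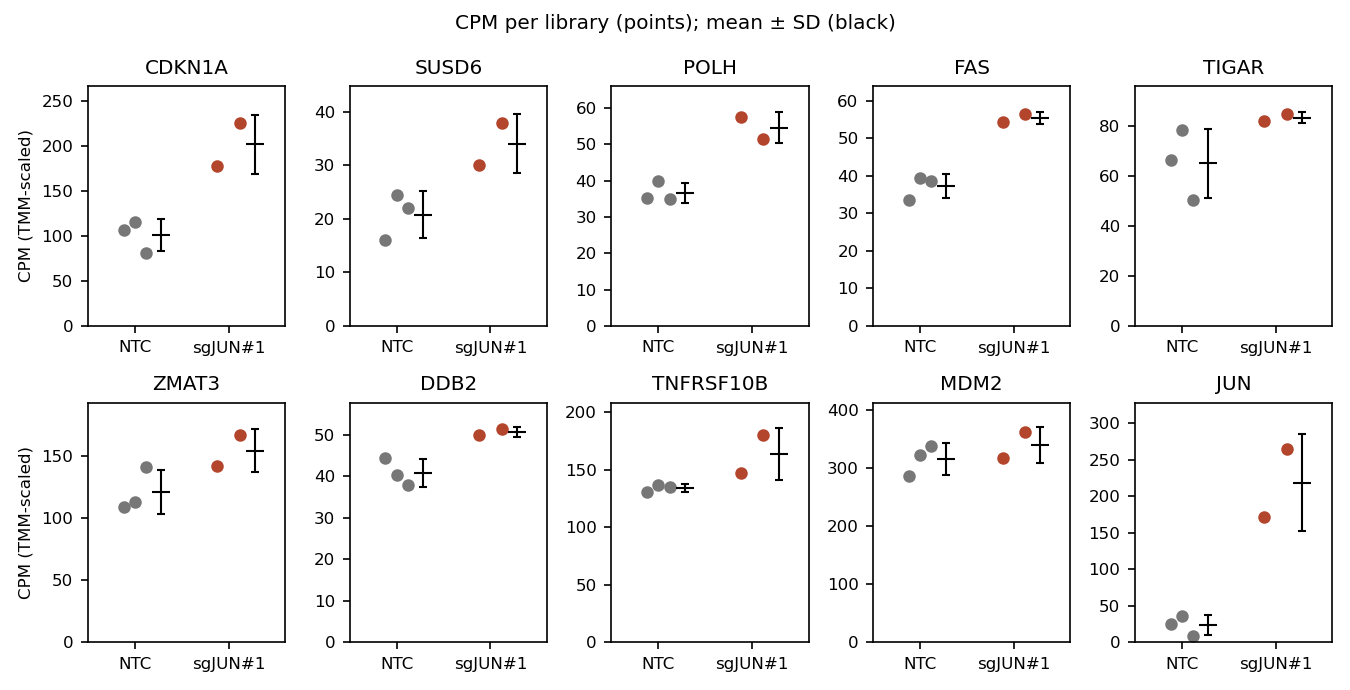
CPM of the 8 members whose groups did not overlap, and of MDM2 and JUN, in each library (grey points NTC, red points sgJUN#1; black, mean ± SD; each axis starts at 0). CDKN1A lies at 81.2 to 116 in NTC and at 179 and 225 in sgJUN#1, the MDM2 groups overlap, and JUN does not.

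Of the feedback regulators, MDM2, at chr12:69201957-69239324 on the plus strand of GRCh37, was counted at 285, 323 and 338 CPM in NTC, against 317 and 361 CPM in sgJUN#1. The groups overlapped, and the means were 315 ± 27 (SD, n = 3) and 339 ± 31.2 (SD, n = 2). The log2 fold change was 0.11, with a 95% confidence interval of -0.32 to 0.53 and an edgeR adjusted p of 0.925. The CDKN1A estimate of 1.00 lies outside this interval, but its own 95% confidence interval, 0.50 to 1.49, overlaps that of MDM2. Whether the fold changes of these genes differ was not tested. Counts of CDKN1A per count of MDM2 were 0.375, 0.359 and 0.240 in NTC and 0.563 and 0.624 in sgJUN#1, without overlap. As MDM2 differed little between the groups, this ratio largely restates the CDKN1A difference and is not a separate result. The gene for carboxypeptidase M, on the opposite strand, overlaps the last 1000 bases of MDM2, and the handling of strand in the counting is not stated.

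MDM2 is transcribed from a pair of promoters, of which the second, within the gene, is the p53-responsive one. The window of a downstream start is shown because it holds both features of interest, an AP-1 match and the start region that serves the p53-responsive promoter. It is chr12:68808767-68809016 on the plus strand of GRCh38.p14, with the AP-1 letters in capitals.
MDM2: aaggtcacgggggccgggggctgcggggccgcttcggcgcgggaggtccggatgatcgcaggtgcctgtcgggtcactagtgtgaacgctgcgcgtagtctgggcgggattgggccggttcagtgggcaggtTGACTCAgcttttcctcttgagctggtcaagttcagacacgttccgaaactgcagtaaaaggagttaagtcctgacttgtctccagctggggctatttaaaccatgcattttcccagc
The p53 decamer in its strict form, with no mismatch allowed, did not match in this window. Sites that depart from the strict letters would be missed, so the window cannot be said to lack p53 sites. The MDM2 libraries overlapped between the groups, as given above.

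The other feedback regulators overlapped between the groups as MDM2 did. PPM1D, the phosphatase WIP1 that switches off p53 and its kinases, stood at 23.4, 16.3 and 20.9 CPM in NTC, against 27 and 22.5 CPM in sgJUN#1, with a log2 fold change of 0.29. FBXO22, a ubiquitin ligase subunit, had a log2 fold change of 0.12. CCNG1, the cyclin G1 gene that recruits a phosphatase to MDM2, varied widely within both groups, at 245, 123 and 204 CPM in NTC and 148 and 266 CPM in sgJUN#1. All 4 members of this role had log2 fold changes above 0, with a median of 0.11, and none was separated between groups.

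Besides CDKN1A, the genes of cell cycle arrest and growth control included the next largest fold change. SUSD6, a membrane protein gene that restrains growth after DNA damage, was measured at 16.0, 24.4 and 22.0 CPM in NTC, against 30.1 and 37.9 CPM in sgJUN#1. Both sgJUN#1 libraries were higher than all NTC libraries. Its log2 fold change was 0.71 (SE 0.26, 95% confidence interval 0.13 to 1.29), with an edgeR adjusted p of 0.490.

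ZMAT3, an RNA-binding protein that alters splicing and stability of target messages, gave 109, 113 and 141 CPM in NTC and 142 and 167 CPM in sgJUN#1. The groups did not overlap, although NTC replicate 3 and sgJUN#1 replicate 1 were nearly equal. Its log2 fold change was 0.35 ± 0.20 (SE), with an edgeR adjusted p of 0.703. The remaining members of this role had log2 fold changes near or below 0. They were 0.053 for the antiproliferative gene BTG2, -0.14 for PLK3, -0.22 for PLK2 and -0.36 for GDF15, a secreted stress cytokine. GDF15 was counted at 16.8, 18.7 and 23.1 CPM in NTC and 13.6 and 17.2 CPM in sgJUN#1, which overlapped.

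**Figure D2:**
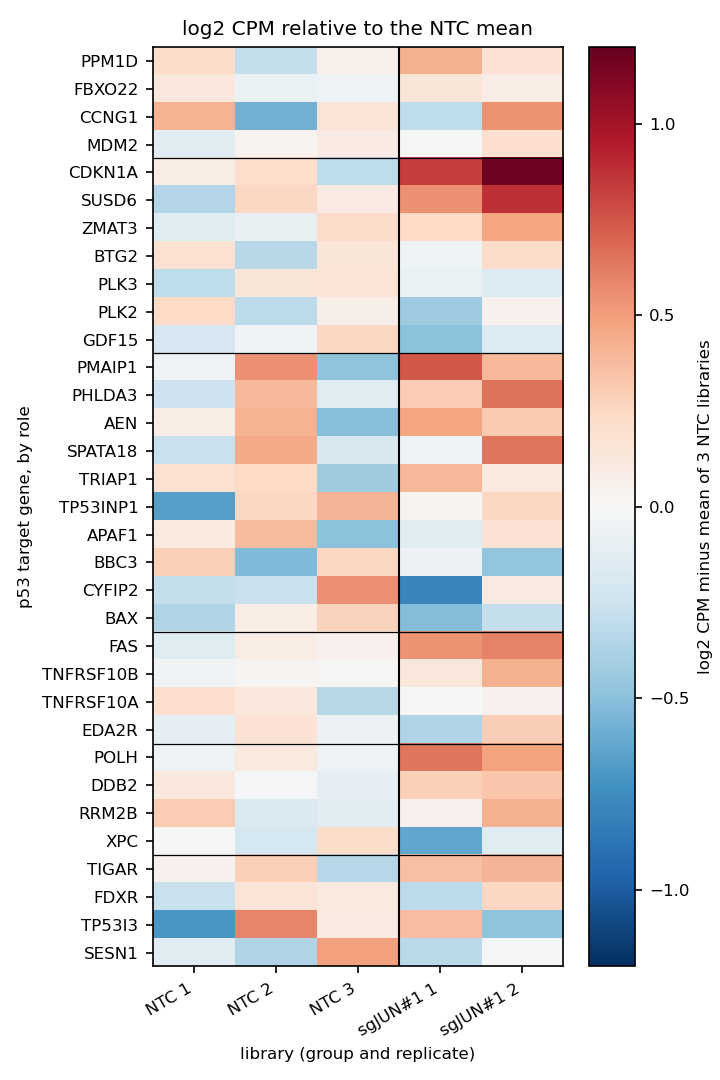
Log2 CPM (prior count 2) of each member in each library, as the difference from the mean of the 3 NTC libraries (colour scale, red higher and blue lower; rows are members grouped by role, columns are libraries). CDKN1A is above the NTC mean in both sgJUN#1 libraries by 0.83 and 1.16, and BAX is below it by 0.52 and 0.29.

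The 10 members grouped under mitochondrial apoptosis and its control include genes described below by other roles, such as PHLDA3 and TP53INP1. Their log2 fold changes lay on both sides of 0, with 6 above it, a median of 0.15 and none separated between groups. PMAIP1 encodes NOXA, a BH3-only protein that disarms anti-apoptotic BCL2 relatives. It gave 12.4, 19.1 and 9.09 CPM in NTC and 22.1 and 17.2 CPM in sgJUN#1, which overlapped, with a log2 fold change of 0.58 (edgeR adjusted p = 0.70). BBC3 encodes PUMA, the other BH3-only p53 target of the list. It stood at 96.8, 54.9 and 94.3 CPM in NTC and 75.7 and 57.2 CPM in sgJUN#1, and the sgJUN#1 values lay within the NTC range. Its log2 fold change was -0.30 (95% confidence interval -0.92 to 0.31, edgeR adjusted p = 0.807).

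BAX, the pore-forming protein of the mitochondrial outer membrane, had the lowest log2 fold change of the 33 members. It was counted at 8.80, 12.2 and 14 CPM in NTC and 7.84 and 9.30 CPM in sgJUN#1, and NTC replicate 1 lay between the sgJUN#1 libraries. The log2 fold change of -0.46 had a 95% confidence interval of -1.19 to 0.27 and an edgeR adjusted p of 0.758, and it rested on 26 to 63 counts a library. The BAX difference was thus within the spread between replicates. AEN, an apoptosis-associated nuclease, and PHLDA3, which restrains AKT signalling, had log2 fold changes of 0.38 and 0.48. SPATA18 and TRIAP1 followed at 0.31 and 0.24, and TP53INP1, an autophagy and stress protein, stood at 0.068 and APAF1, the apoptosome scaffold, at -0.0067. CYFIP2 had a log2 fold change of -0.39, with a 95% confidence interval of -1.25 to 0.47.

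Of the 4 death receptors, FAS had the largest log2 fold change. FAS, the receptor that assembles a caspase-8 complex on binding its ligand, lies at chr10:90750414-90775542 on the plus strand of GRCh37. It gave 33.6, 39.5 and 38.6 CPM in NTC, a mean of 37.2 ± 3.20 (SD, n = 3), and 54.3 and 56.5 CPM in sgJUN#1, a mean of 55.4 ± 1.59 (SD, n = 2). Every sgJUN#1 library exceeded every NTC library. The log2 fold change was 0.57 (SE 0.20, 95% confidence interval 0.12 to 1.03), with an edgeR unadjusted p of 0.018 and an adjusted p of 0.459.

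TNFRSF10B, the TRAIL receptor DR5, was counted at 130, 137 and 135 CPM in NTC, against 148 and 180 CPM in sgJUN#1. These groups did not overlap either, and the log2 fold change was 0.29 ± 0.19 (SE), with an edgeR adjusted p of 0.744. TNFRSF10A, the TRAIL receptor DR4, had a log2 fold change of 0.015, and EDA2R, the ectodysplasin receptor XEDAR, one of -0.018. Both overlapped between the groups. RHOBTB2, on the opposite strand, overlaps the last 1000 bases of TNFRSF10B.

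Among DNA repair genes, POLH encodes polymerase eta, which copies past ultraviolet lesions, and lies at chr6:43543922-43588260 on the plus strand of GRCh37. It was measured at 35.2, 39.9 and 35.0 CPM in NTC, a mean of 36.7 ± 2.75 (SD, n = 3), and at 57.6 and 51.5 CPM in sgJUN#1, a mean of 54.6 ± 4.29 (SD, n = 2). Both sgJUN#1 libraries were above the NTC range. The log2 fold change was 0.58 (SE 0.20, 95% confidence interval 0.12 to 1.03, edgeR adjusted p = 0.459). GTPBP2, on the opposite strand, overlaps its last 1000 bases and gave 73, 65 and 101 counts in NTC and 91 and 52 in sgJUN#1.

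DDB2, the lesion sensor of global nucleotide excision repair, stood at 44.6, 40.3 and 37.9 CPM in NTC and 49.9 and 51.5 CPM in sgJUN#1. It was separated between the groups, at a log2 fold change of 0.31 ± 0.20 (SE) and an edgeR adjusted p of 0.738. XPC, which acts in the same pathway, gave 59.7, 51.7 and 69.6 CPM in NTC and 38.6 and 54.0 CPM in sgJUN#1. Its groups overlapped, and its log2 fold change was -0.39 with a 95% confidence interval of -0.92 to 0.14. RRM2B, a ribonucleotide reductase subunit, had a log2 fold change of 0.23.

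Metabolic and redox members had 1 of 4 log2 fold changes above 0. TIGAR, a fructose bisphosphatase that diverts glucose to the pentose phosphate pathway, gave 66.3, 78.1 and 50.4 CPM in NTC and 81.7 and 84.8 CPM in sgJUN#1. Its groups did not overlap, with sgJUN#1 higher, and its log2 fold change was 0.36 ± 0.23 (SE), with an edgeR adjusted p of 0.720. SESN1, a sestrin that restrains mTORC1, had a log2 fold change of -0.22, and FDXR, a mitochondrial reductase, one of -0.046. TP53I3, a quinone oxidoreductase, ranged from 43.7 to 107 CPM in NTC and from 50.8 to 91.8 CPM in sgJUN#1. FAM228B lies opposite its 3′ end.

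Matches to the AP-1 and p53 letters are given because JUN binds the first and the members are known as targets of the second. Of the 33 members, 27 had a promoter entry in the RefSeq table used, and FBXO22, PHLDA3, RRM2B, TNFRSF10A, TNFRSF10B and TP53INP1 did not. AP-1 letters occurred in a window of 4 of the 27 (14.8%), compared with 6.29% of tested genes. A gene can have several windows. Counted by window, 5 of 40 member windows held the letters, compared with 6.57% of all 35116 windows. The stretches are printed 5′ to 3′ on the strand of the gene, with the match in capitals.
FAS: caagttgcTGAATCAatggagccctc
MDM2: agtgggcaggtTGACTCAgcttttcctct
BBC3: gcactggaaggTGAGTCActctggtgagg
EDA2R: tggatgtgaaaTGAGTCAagcggaacttt
They lie at chr10:88990548-88990573 (plus strand), chr12:68808888-68808916 (plus), chr19:47232763-47232791 (minus) and chrX:66639224-66639252 (minus) of GRCh38.p14. Their log2 fold changes were 0.57, 0.11, -0.30 and -0.018 in the same order, of which that of FAS alone was separated between groups. CRE letters were found in 1 of 40 member windows, against 1.65% of all windows. By gene this was PPM1D, 1 of 27 members (3.70%), against 3.37% of tested genes, at chr17:60600121-60600150 on the plus strand.
PPM1D: agagagccgagTGACGTCAgcgggggagaa

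The p53 decamer was matched in 5 of the 27 members (18.5%), against 6.81% of tested genes. Counted by window, it was matched in 5 of 40 member windows, against 5.57% of all windows. The matches are printed 5′ to 3′ on the strand of the gene with the decamer in capitals.
FAS: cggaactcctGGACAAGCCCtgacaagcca
AEN: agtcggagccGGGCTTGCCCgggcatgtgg
PLK2: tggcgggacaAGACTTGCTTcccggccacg
SESN1: attgtcgtctGGACAAGTCTccacaagtca
FDXR: gggcaggagcGGGCTTGCCCt
They lie at chr10:88991299-88991328 (plus strand), chr15:88621296-88621325 (plus), chr5:58460199-58460228 (minus), chr6:109009018-109009047 (minus) and chr17:74872995-74873015 (minus) of GRCh38.p14. Of these, FAS was separated upwards between the groups and AEN had a log2 fold change of 0.38, while PLK2, SESN1 and FDXR had values below 0. GC boxes were present in 24 of the 27 members (88.9%), as in 72.4% of tested genes. A match describes letters and is not evidence of binding in these cells.

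Upstream of the targets, a list of 21 regulators and relatives of p53 was examined, of which 19 were tested. None was called, 0 had an unadjusted edgeR p under 0.05 in either direction, and the median log2 fold change was -0.087. In 4 (21.1%) the sgJUN#1 libraries were all higher and in 2 (10.5%) all lower, against 12.2% and 12.8% of all tested genes. MDM4, the p53-binding relative of MDM2, belonged to the latter at 114, 115 and 139 CPM in NTC and 102 and 107 CPM in sgJUN#1, which gave a log2 fold change of -0.24 (edgeR adjusted p = 0.789). The log2 fold changes at the ends of this list were -0.63 for PPP1R13L, an inhibitor of p53, and -0.26 for the acetyltransferase CREBBP, and 0.43 for the checkpoint kinase CHEK1 and 0.42 for the p53 kinase HIPK2. TP63, which marks basal epithelium, gave 4.68 to 5.99 CPM in NTC and 3.10 and 7.51 CPM in sgJUN#1. CDKN2A had 0 to 4 counts a library and was not tested, nor was TP73 at 6 to 12 counts.

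A further 36 p53 targets from outside the 33 members were examined, and 33 of them passed the filter. None was called, 1 had an unadjusted edgeR p under 0.05 in each direction, and the median log2 fold change was 0.14. In 5 (15.2%) the sgJUN#1 libraries were all higher and in 4 (12.1%) all lower, near the 12.2% and 12.8% of all tested genes. The lowest was TSKU, a secreted leucine-rich protein gene, at 17.3, 20.4 and 19.7 CPM in NTC and 10.3 and 9.66 CPM in sgJUN#1, which gave a log2 fold change of -0.93 (edgeR adjusted p = 0.316). The calcium channel gene ORAI3 followed at -0.84. At the upper end, IGFBP3, which binds insulin-like growth factors, reached a log2 fold change of 0.69 on values of 34.7, 137 and 7.32 CPM in NTC and 165 and 20.0 CPM in sgJUN#1. These groups overlapped widely. The ferrireductase gene STEAP3 had a log2 fold change of 0.67.

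Genes repressed downstream of p53 and p21 through the DREAM complex, which silences cell cycle genes, formed a list of 15 that were all tested. None was called, 1 (CDC20, lower in sgJUN#1) had an unadjusted edgeR p under 0.05, and none was separated between groups. Their median log2 fold change was -0.16 and 12 of 15 were below 0. Values above 0 made up 20.0% of this list, against 49.0% of all tested genes. The lowest was CDC20, an activator of the anaphase-promoting complex, at -0.80 on 56.1, 60.2 and 32.8 CPM in NTC and 21.5 and 35.8 CPM in sgJUN#1. CCNA2, encoding cyclin A2, followed at -0.43, and the highest were E2F1 at 0.48 and FOXM1 at 0.10. These values depended on single libraries. CDC20 was -0.47 without sgJUN#1 replicate 1, and -0.70, -0.65 and -1.05 without NTC replicates 1, 2 and 3 in turn. It was lower still without sgJUN#1 replicate 2. CCNA2 ran from -0.79 without sgJUN#1 replicate 1 to -0.14 without sgJUN#1 replicate 2. Without NTC replicates 1, 2 and 3 in turn, CCNA2 was -0.25, -0.27 and -0.71. Both genes were thus lower without NTC replicate 3 than with all libraries. E2F1 was 0.032 without NTC replicate 3, 0.11 without sgJUN#1 replicate 1 and 1.13 without NTC replicate 2.

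The NTC libraries differed among themselves in these cell cycle genes by more than the groups did. The median deviation of the 15 genes from the NTC mean was 0.34, 0.46 and -0.78 on the log2 scale in NTC replicates 1 to 3, and -0.062 and -0.23 in the sgJUN#1 libraries. All 15 lay below the NTC mean in NTC replicate 3, which also had the lowest CDKN1A and the lowest JUN of all libraries. The log2 fold change of CDKN1A without that library was 0.86 (edgeR adjusted p = 0.129). Over the 33 members, the median deviation was -0.057, 0.088 and 0.062 in NTC and 0.034 and 0.24 in sgJUN#1, so that sgJUN#1 replicate 1 lay within the NTC range and replicate 2 above it. Members above the NTC mean numbered 14, 20 and 19 in NTC and 19 and 26 in sgJUN#1.

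**Figure D3:**
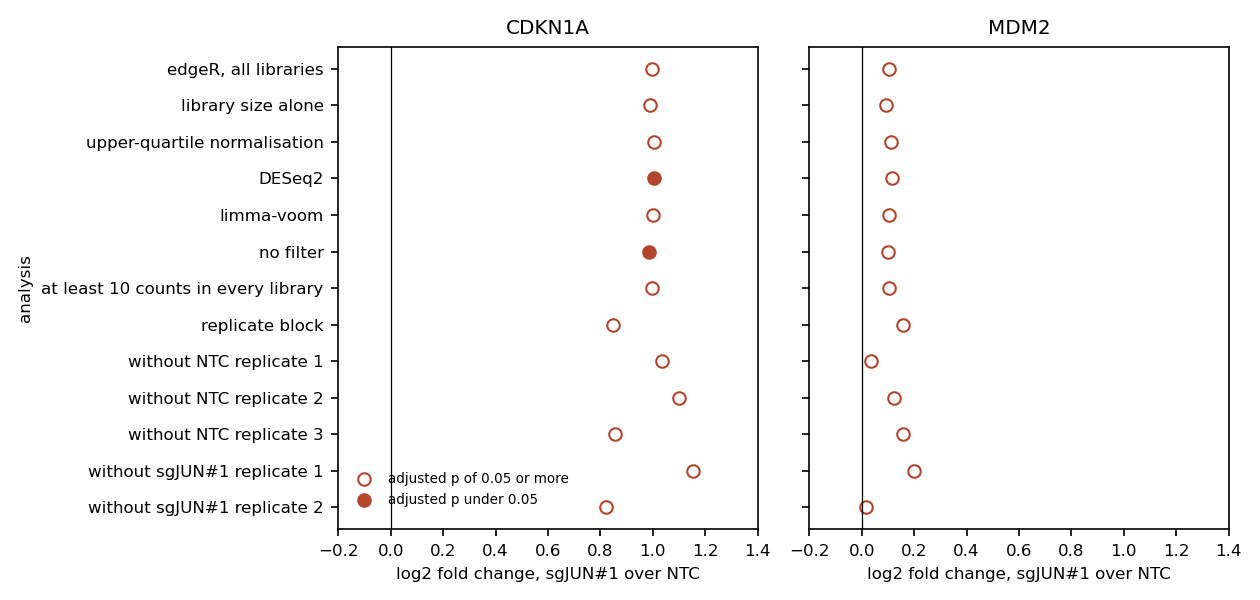
Log2 fold change, sgJUN#1 over NTC, of CDKN1A (left) and MDM2 (right) under edgeR with all libraries and each of the 12 alternatives (rows); filled points have an adjusted p under 0.05 and open points do not. CDKN1A stays between 0.82 and 1.16 and is filled in DESeq2 and without the filter, while MDM2 stays between 0.017 and 0.20 and is open throughout.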

How the data were processed

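RNA from 5 MCF10A SAM libraries (3 NTC, 2 sgJUN#1, groups from the sample titles) was prepared by the authors with the QuantSeq 3′ mRNA-Seq FWD kit. The submitters' processing notes name cutadapt 4.2, Bowtie2 2.3.5.1 and build hg19; the annotation and the use of strand in the counting are not given in the sources used here. The authors deposited whole-number counts per gene without normalisation. Symbols were found for 99.4% of the 23459 genes, and gene positions came from GENCODE lifted to GRCh37.

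Counts were tested in edgeR 4.0.16 (R 4.3.3) with TMM factors (0.975 to 1.03), filterByExpr (13616 genes kept, 9843 removed), a robust quasi-likelihood fit and Benjamini-Hochberg adjustment over all tested genes, at 0.05. The biological coefficient of variation was 22.3%. CPM were scaled to TMM-adjusted totals. The fit was tested on simulated data in which the changed genes had larger fold changes than any member. Whether it detects changes of the members' size was not tested. Libraries differed from each other beyond sampling noise (chi-square per degree of freedom of 7.62 or more within groups) and were counted separately. The 12 alternatives were library-size scaling, upper-quartile scaling, DESeq2 1.42.0, limma-voom 3.58.1, no filter, at least 10 counts in every library, a replicate block, and leaving out each library. The replicate 1 minus 2 differences of NTC and sgJUN#1 correlated at r = 0.0146 over genes, and the numbers were not taken as pairs. The library identifiers of NTC and sgJUN#1 are consecutive within replicate 1 and within replicate 2, and the remaining NTC library has no such partner. What the identifiers stand for is not stated.

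The members and gene lists were chosen with earlier results of these data known. The rule for named genes covered JUN, CDKN1A, MDM2, members past the threshold or not overlapping between groups, the 5 highest and 5 lowest members, TP63, MDM4, CDKN2A and the 2 extremes of each list at either end; the remaining members were named as examples after their values were seen. One gene of that rule is not reported here and was left out of its list.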

Additional observations from a re-analysis of the deposited data

How the results depend on the processing

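Genes past an adjusted p of 0.05 numbered 28 in edgeR, 145 in DESeq2, 148 without the filter and 18 with at least 10 counts in every library. Leaving out a library gave 10 to 57. With replicate number as a block (replicate block) there were 103, although the numbers were not treated as pairs. Replicate 3 exists only in NTC, so in that fit NTC replicate 3 does not inform the group difference. The block is thus not a check separate from leaving out that library. The log2 fold change of CDKN1A was 0.85 with the block and 0.86 without NTC replicate 3. Of the members, 1 passed in DESeq2 and 1 without the filter, CDKN1A in both, and 0 under the other alternatives. The members' median log2 fold change of 0.11 ran from 0.017 without sgJUN#1 replicate 2 to 0.20 without sgJUN#1 replicate 1. CDKN1A had an edgeR adjusted p of 0.740 without sgJUN#1 replicate 2 and of 0.0835 with the block.

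Of 576 values for 48 named genes under the alternatives, 534 kept their direction and their side of the threshold, 35 changed sign and 7 passed the threshold only under the alternative. In 21 of 33 members no alternative changed the sign. APAF1 turned to 0.0019 under upper-quartile scaling and to 0.045 in limma-voom. With the block, TNFRSF10A turned to -0.14, TP53I3 to 0.016, SESN1 to 0.064, FDXR to 0.018, IGFBP3 to -0.11 and FOXM1 to -0.13. When each library was left out in turn, log2 fold changes ran from -0.23 to 0.19 for APAF1, -0.14 to 0.12 for TNFRSF10A, -0.57 to 0.29 for TP53I3, -0.39 to 0.069 for SESN1, -0.34 to 0.25 for FDXR, -1.54 to 2.18 for IGFBP3 and -0.12 to 0.30 for FOXM1. They ran from -0.21 to 0.33 for TP53INP1, -0.085 to 0.20 for BTG2, -0.36 to 0.48 for CCNG1, -0.37 to 0.32 for EDA2R, -0.47 to 0.022 for PLK2 and -0.89 to 0.037 for CYFIP2. For TP63 they ran from -0.80 to 0.46, for SPATA18 from -0.066 to 0.65 and for HIPK2 from -0.051 to 0.79. Without a change of sign, ORAI3 ran from -1.34 to -0.36, STEAP3 from 0.25 to 1.04 and CHEK1 from 0.23 to 0.58. The cause of these changes was not tested, and with 2 sgJUN#1 libraries a single library weighs heavily.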

Other observations

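The order of the libraries by JUN, lowest first, was NTC replicate 3, NTC replicate 1, NTC replicate 2, sgJUN#1 replicate 1 and sgJUN#1 replicate 2. CDKN1A and TIGAR followed the same order, as did 188 of the 13616 tested genes, which is 1.38%. Only genes with both sgJUN#1 libraries above every NTC library can follow it, and these numbered 1663. CDKN1A and TIGAR were already among the 8 members separated in this way.

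TP53I3 was counted at 159, 263 and 346 in NTC and at 445 and 142 in sgJUN#1, while FAM228B, which lies opposite its 3′ end, was counted at 235, 308 and 529 in NTC and 491 and 206 in sgJUN#1. Of the members, 9 overlap a gene on the opposite strand within their last 1000 bases. For TP53I3, TP53INP1 (opposite NDUFAF6) and APAF1 (opposite ANKS1B), the opposite gene had more counts than the member in every library. Whether reads of such pairs were told apart is not stated.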
